A study of Mus musculus with 10 samples.

Results

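The genes described here are *Dlx1*, *Dlx2*, *Dlx3*, *Dlx5*, *Dlx6*, *Hand1*, *Hand2*, *Edn1* and *Ednra*, which act together in patterning the pharyngeal arches. They were picked by symbol as a known gene group, with earlier results of these same libraries in view, and make up 9 of the 53465 genes in the count table. The study asked how an extra copy of the enhancer mEC1, which lies near the homeobox gene *Hmx1*, changes the developing external ear. Bulk RNA-seq libraries were made from whole pinna prominences micro-dissected at E14.5. The groups were wild-type (WT) mouse embryos with no edit and mEC1dup/dup embryos, in which CRISPR/Cas9 inserted 1 additional mEC1 copy on each allele, so that they carry 4 copies in place of 2. Both genotypes were on the C57BL/6J background, were untreated and had 5 libraries each, which the study describes as separate embryos (the sex-linked counts of 2 of them are given below). Each library holds all cell types of the prominence, so fewer cells of a type and less RNA per cell cannot be told apart in any value given here.

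The arches are filled by mesenchyme that derives largely from the cranial neural crest. In the classical view of the early arch, endothelin 1, the secreted peptide encoded by *Edn1*, is made by arch epithelium and acts on the endothelin A receptor encoded by *Ednra* on the crest cells. Signalling through this receptor is known to switch on the homeobox genes *Dlx5* and *Dlx6* in the ventral part of the arch and, downstream of them, the basic helix-loop-helix gene *Hand2*. *Dlx1* and *Dlx2* are expressed more widely along the arch, and nested combinations of Dlx genes mark dorsal, intermediate and ventral positions. The external ear grows from the first and second arches.

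Total counts ranged from 17461544 to 18462073 per library. *Hmx1*, the gene next to the enhancer, had 376 to 526 counts in the WT libraries and 976 to 1356 in the mEC1dup/dup libraries, without overlap. The libraries also differed in the sex-linked transcripts. All 5 WT libraries had at most 5 counts of *Xist* and at least 1289 of the Y-linked *Ddx3y*. mEC1dup/dup replicates 2 and 3 had 19040 and 18165 *Xist* counts with 10 and 16 of *Ddx3y*, whereas replicate 5 had 0 and 1333. Replicates 1 and 4 held both, with 12812 and 2096 *Xist* counts beside 241 and 1219 of *Ddx3y*. The embryonic globins took 18.4% to 23.3% of globin counts in WT and 32.5% to 35.6% in mEC1dup/dup. Sex and the globin share therefore move with the genotype, and their part in the results was not tested beyond the fits given below.

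Per kilobase of exon, the 9 genes covered a wide range of levels in the WT pinna. On the FPKM scale (counts scaled to the exon length and to the TMM-normalised library size), *Dlx5* was the highest at 34.2 ± 5.81 (SD, n = 5), followed by *Dlx3* at 27.2 ± 2.80. *Dlx2* (14.3 ± 2.36), *Dlx1* (13.1 ± 2.12), *Ednra* (13.0 ± 1.53) and *Dlx6* (10.8 ± 1.71) formed a middle group. *Hand2* stood at 4.76 ± 0.739, *Edn1* at 0.875 ± 0.0806 and *Hand1* at 0.0837 ± 0.0959. The WT ranges of *Dlx5* and *Dlx3* overlapped, as did those of neighbours within the middle group. The steps from *Dlx3* to *Dlx2*, from *Dlx6* to *Hand2*, from *Hand2* to *Edn1* and from *Edn1* to *Hand1* were each between WT ranges that did not overlap. In the mEC1dup/dup pinna the FPKM order was the same except that *Dlx6* (14.4 ± 1.69) and *Ednra* (14.2 ± 1.31), whose ranges overlapped, changed places. In WT the receptor gene was thus, as counted, at a level like those of *Dlx1*, *Dlx2* and *Dlx6*, below *Dlx5* and *Dlx3*. Its ligand gene was near the bottom of the list in both genotypes. Exon bases shared with other-strand transcripts make up 60.2% of *Dlx1*, 36.8% of *Hand1*, 29.7% of *Ednra*, 28.3% of *Hand2* and 22.5% of *Edn1*. For *Dlx6* it is 3.8%, and *Dlx2*, *Dlx3* and *Dlx5* share none. How reads from shared bases were counted is not given in the sources used here. The levels and order of the overlapped genes may therefore be off, which was not tested.

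**Figure D1:**
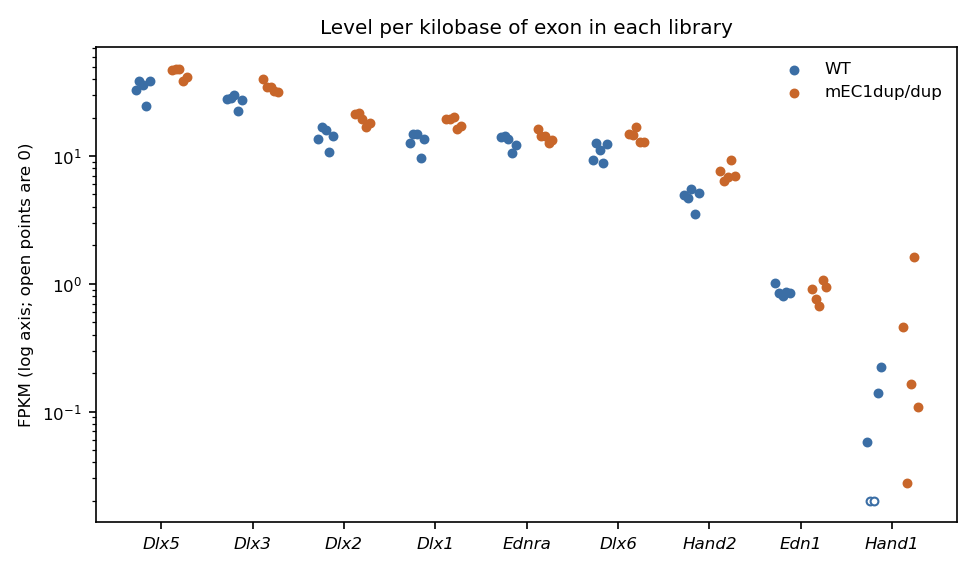
Each point is 1 library, with FPKM on a log axis, blue for WT and orange for mEC1dup/dup, and genes ordered by their WT mean; the 2 open points mark WT libraries with 0 *Hand1* counts. *Dlx5* lies between 24.7 and 38.8 FPKM in WT, and *Edn1* between 0.798 and 1.01.

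Across genotypes, *Dlx1*, *Dlx2*, *Dlx3* and *Hand2* were higher in mEC1dup/dup than in WT, *Dlx5* and *Dlx6* had fold changes of like size that missed the threshold, and the receptor and ligand genes showed little difference. Of the 9 genes, 8 passed the filter on low counts and were fitted with edgeR's quasi-likelihood test over 16426 genes. *Dlx1*, *Dlx2*, *Dlx3* and *Hand2* met both conditions that the study set for a differentially expressed gene (DEG), which are an adjusted p no higher than 0.05 and an average log2 CPM no lower than 1, all 4 in the higher direction. Among all tested genes 0.834% were DEGs in that direction. *Dlx1*, *Dlx2*, *Dlx3*, *Dlx6* and *Hand2* had every mEC1dup/dup library above every WT library, a pattern that 2.33% of all tested genes shared. The median log2 fold change of the 8 fitted genes was 0.40, against a median of -0.0041 over all tested genes. Because the group was chosen with this contrast known, these counts, folds and adjusted p-values describe it and support nothing further. The 5 libraries of each genotype are taken as replicates. The study states that its mouse replicates came from siblings of separate litters, but not which libraries share a litter, and whether mEC1dup/dup replicates 1 and 4 hold 1 embryo each was not tested.

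**Figure D2:**
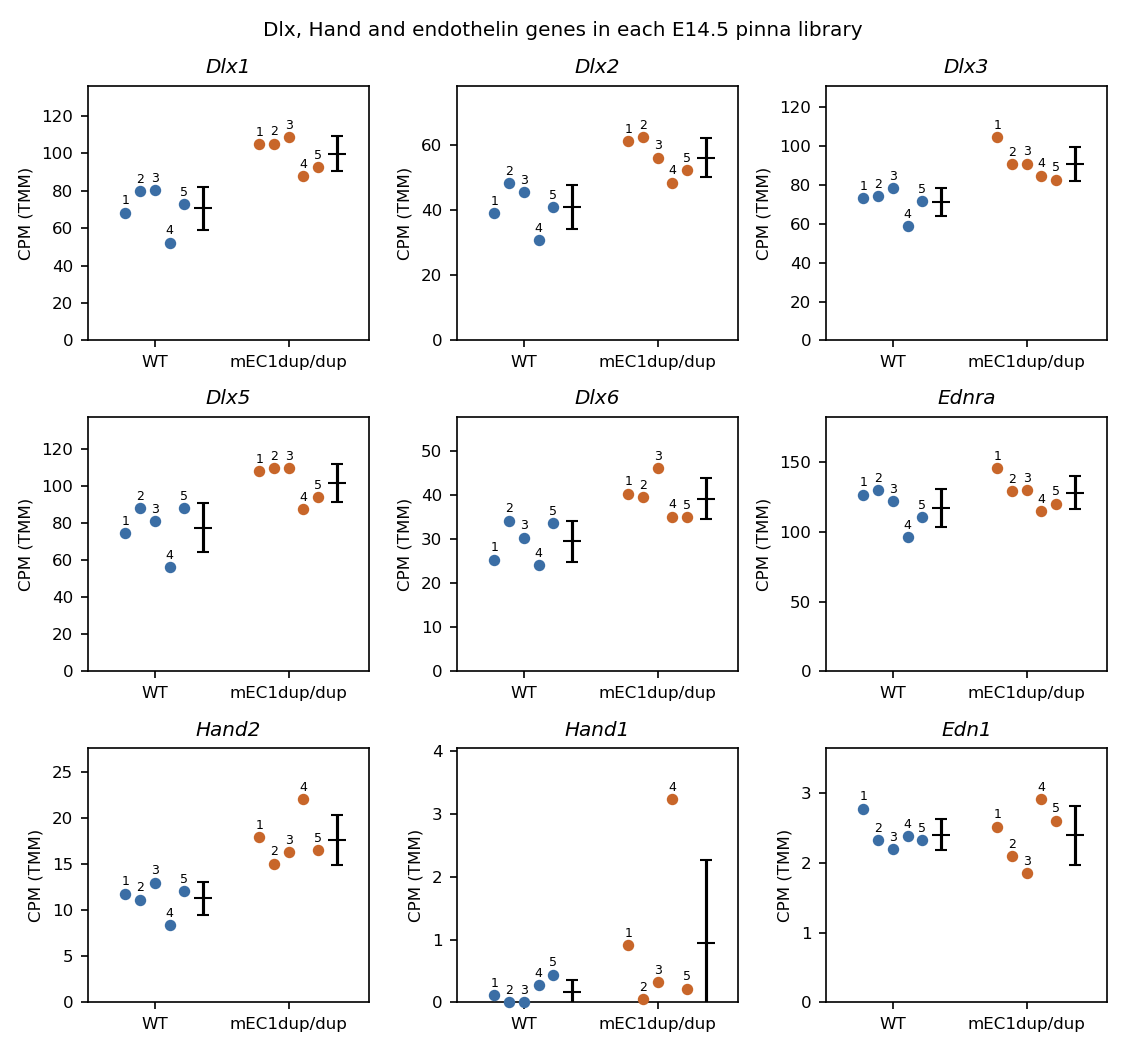
Each panel plots the CPM (counts scaled to the TMM-normalised library size, linear axis from 0) of 1 gene, with replicate numbers beside the points and the mean ± SD in black (n = 5; the *Hand1* bar is drawn down to 0 only). WT replicate 4 is the lowest point for all 5 Dlx genes, and mEC1dup/dup replicate 4 is the highest for *Hand1*, *Hand2* and *Edn1*.

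*Dlx1* and *Dlx2* encode homeodomain transcription factors and lie as a convergent pair on chromosome 2, at chr2:71358457-71364325 on the + strand and chr2:71373752-71377102 on the - strand (GRCm39), with 9426 bases between them. *Dlx1* measured 68.4, 79.8, 80.2, 52.2 and 73.0 CPM in WT replicates 1 to 5. In mEC1dup/dup replicates 1 to 5 it measured 105, 105, 109, 87.7 and 92.7 CPM. All mEC1dup/dup libraries were above all WT libraries, and WT replicate 4 was the lowest of the 10. The means were 70.7 ± 11.5 and 99.9 ± 9.17 CPM (SD, n = 5), a log2 fold change of 0.50 (SE 0.10, 95% interval 0.28 to 0.72, edgeR adjusted p = 0.0224).

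*Dlx2* measured 39.1, 48.3, 45.5, 30.7 and 40.9 CPM in WT. The mEC1dup/dup libraries had 61.3, 62.5, 56.1, 48.4 and 52.3 CPM. The groups separated only narrowly, since WT replicate 2 and mEC1dup/dup replicate 4 were almost level. The log2 fold change was 0.46 (SE 0.11, interval 0.22 to 0.69, edgeR adjusted p = 0.0419). The log2 ratio of *Dlx1* to *Dlx2* CPM was 0.790 ± 0.045 in WT and 0.834 ± 0.080 in mEC1dup/dup, with a range of 0.724 to 0.957 over all libraries. *Dlx1* shares 60.2% of its exon bases with *Dlx1as* on the other strand. The strand setting of the counting is not given in the sources used here, so reads of the 2 genes cannot be told apart there, whereas *Dlx2* has no overlapping gene.

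*Dlx3*, known for roles in epidermis, hair and bone as well as in the arches, lies at chr11:95010937-95016122 on the + strand. It had 73.1, 74.1, 78.3, 58.9 and 71.6 CPM in WT and 105, 90.7, 91.0, 84.8 and 82.7 CPM in mEC1dup/dup. Every mEC1dup/dup library was above every WT library, with replicate 1 the highest. The log2 fold change of 0.35 (SE 0.077, interval 0.18 to 0.52, edgeR adjusted p = 0.0309) was the smallest among the 4 genes past the thresholds. Of 6 epithelial markers in the same libraries, *Krt5* and *Krt14* were downregulated DEGs, in a direction in which 1.81% of all tested genes were DEGs. Of the 6, 5 had a negative log2 fold change, opposite to *Dlx3*, and *Epcam* had 0.04. Their summed level ran from 726 to 1265 CPM in WT and from 588 to 768 CPM in mEC1dup/dup.

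*Dlx5* and *Dlx6*, the ventral arch pair, lie convergently on chromosome 6 at chr6:6877804-6882092 (- strand) and chr6:6862989-6868568 (+ strand), 9235 bases apart. *Dlx5* had 74.7, 87.9, 81.2, 56.1 and 88.1 CPM in WT. It had 108, 109, 109.8, 87.3 and 94.1 CPM in mEC1dup/dup. Here the groups overlapped, because mEC1dup/dup replicate 4 was just below WT replicates 2 and 5. The log2 fold change was 0.39 (SE 0.11, interval 0.16 to 0.62) and the edgeR adjusted p of 0.0776 missed the threshold. *Dlx6* had 25.3, 34.2, 30.3, 24.0 and 33.6 CPM in WT. Its mEC1dup/dup libraries had 40.2, 39.5, 46.1, 35.1 and 34.9 CPM, all above WT. Its log2 fold change was 0.41 (SE 0.11, interval 0.18 to 0.64), again short of the threshold with an edgeR adjusted p of 0.0628. The 5 Dlx folds from 0.35 to 0.50 have intervals that overlap one another, so passing or missing the threshold does not set *Dlx5* and *Dlx6* apart from the other Dlx genes. The log2 ratio of *Dlx5* to *Dlx6* CPM was 1.39 ± 0.122 in WT and 1.38 ± 0.091 in mEC1dup/dup.

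*Hand2*, a basic helix-loop-helix factor of the ventral arch, limb bud, heart and sympathetic neurons, had the largest fold change of the 8 tested genes. It lies at chr8:57774011-57777677 on the + strand and shares 28.3% of its exon bases with transcripts of the other strand, among them *Hand2os1*. Its counts were 204, 201, 231, 151 and 218 in WT and 314, 273, 300, 409 and 305 in mEC1dup/dup. In CPM these were 11.8, 11.1, 13.0, 8.36 and 12.1 against 17.9, 15.0, 16.3, 22.1 and 16.5. The groups did not overlap, and mEC1dup/dup replicate 4 was the highest library. The log2 fold change was 0.64 (SE 0.13, interval 0.37 to 0.91, edgeR adjusted p = 0.0186), and it was 0.55 (adjusted p = 0.0403) without mEC1dup/dup replicate 4.

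mEC1dup/dup replicate 4 also stood apart in the markers of sympathetic neurons, a cell type in which *Hand2* and *Hand1* are both known to be expressed. The summed level of the 4 markers *Phox2a*, *Dbh*, *Th* and *Gata3* was 78.2 CPM in that library. It ran from 20.2 to 35.5 CPM in WT and from 21.7 to 33.9 CPM in the other mEC1dup/dup libraries. *Phox2a* had 358 counts there and at most 73 in any other library, and *Dbh* had 305 and at most 128. *Gata3*, which made up much of the sum, was also highest there, with 653 counts and at most 539 elsewhere. *Th* was not, with 133 counts there and 277 in WT replicate 4. Outside mEC1dup/dup replicate 4, *Dbh* had 29 to 128 counts in the mEC1dup/dup libraries against 7 to 35 in WT. *Phox2a* had 38 to 69 against 14 to 73. None of the 4 passed the thresholds, and their log2 fold changes were 1.97 for *Phox2a*, 2.55 for *Dbh* (edgeR adjusted p = 0.0595), 0.06 for *Gata3* and -0.77 for *Th*. The part of these cells in the *Hand2* and *Hand1* values was not tested. Of 5 heart markers, *Myl7* and *Nppa* had at most 2 counts in any library and *Tbx20* at most 13. *Nkx2-5* had 11 to 27 counts in WT and 28 to 46 in mEC1dup/dup (log2 fold change 0.85, edgeR adjusted p = 0.111), and *Tnnt2*, which skeletal muscle also expresses in the embryo, had 1078 to 1935 counts over all libraries.

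*Hand1*, the second Hand gene, did not pass the filter and was not tested. It lies at chr11:57719531-57723644 on the - strand, shares 36.8% of its exon bases with a transcript of the other strand and had 2, 0, 0, 5 and 8 counts in WT and 16, 1, 6, 60 and 4 in mEC1dup/dup. A count of 0 allows up to 3 counts, or 0.166 CPM in WT replicate 2 and 0.168 in WT replicate 3, for counting error only. The 60 counts of mEC1dup/dup replicate 4 (3.24 CPM) were the only value above 1 CPM, and the other 9 libraries overlapped between genotypes. In the WT pinna *Hand2* was thus the Hand gene that was measured at an appreciable level.

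The 250 bases before the annotated start of the 4 genes past the thresholds are printed below as the stretches in which a transcription factor could bind nearest the start. They were read from GRCm39 at the GENCODE vM39 canonical start, 5′ to 3′ on the strand of the gene. Short motifs were searched on both strands, CAAGTG (the core that Hmx factors prefer), TAATTA (a homeodomain core, which reads the same on both strands) and CATCTG (an E-box of the kind Hand factors bind with their partners). Capitals mark matches. The windows are chr8:57773761-57774010 (+) for *Hand2*, chr2:71358207-71358456 (+) for *Dlx1*, chr2:71377103-71377352 (-) for *Dlx2* and chr11:95010687-95010936 (+) for *Dlx3*.
Hand2: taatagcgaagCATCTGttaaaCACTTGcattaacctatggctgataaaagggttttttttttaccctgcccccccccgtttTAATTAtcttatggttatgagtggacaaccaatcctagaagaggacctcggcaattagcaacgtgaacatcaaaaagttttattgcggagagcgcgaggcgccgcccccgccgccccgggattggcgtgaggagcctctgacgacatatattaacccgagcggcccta
Dlx1: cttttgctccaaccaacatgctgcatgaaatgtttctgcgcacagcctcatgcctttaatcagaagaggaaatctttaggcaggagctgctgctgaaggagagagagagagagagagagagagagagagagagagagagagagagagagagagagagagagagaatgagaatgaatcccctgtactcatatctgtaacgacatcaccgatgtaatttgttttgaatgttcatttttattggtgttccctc
Dlx2: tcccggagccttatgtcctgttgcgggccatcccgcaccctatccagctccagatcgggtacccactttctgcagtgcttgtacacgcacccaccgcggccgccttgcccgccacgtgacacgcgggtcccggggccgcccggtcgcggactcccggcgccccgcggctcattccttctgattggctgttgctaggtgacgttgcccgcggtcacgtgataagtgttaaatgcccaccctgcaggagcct
Dlx3: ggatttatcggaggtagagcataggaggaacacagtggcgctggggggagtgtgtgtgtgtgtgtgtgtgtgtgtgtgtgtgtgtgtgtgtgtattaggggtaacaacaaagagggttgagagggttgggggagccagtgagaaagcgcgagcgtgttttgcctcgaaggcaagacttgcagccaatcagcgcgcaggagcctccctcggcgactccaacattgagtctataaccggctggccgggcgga
The *Hand2* window holds each motif once, CATCTG starting 239 bases before the start, CAAGTG on the other strand (printed as CACTTG) at 228 and TAATTA at 168. None of the 3 was found in the windows of the 5 Dlx genes, *Ednra* or *Hand1*, and *Edn1* holds CAAGTG at 81 bases before its start. Among 14477 windows of tested genes, 11% hold CAAGTG, 3.0% TAATTA and 11.5% CATCTG. These matches describe the letters only, and no binding was measured here.

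The endothelin receptor and ligand genes differed little between genotypes. *Ednra*, at chr8:78386590-78451552 on the - strand, had 127, 129.5, 122, 95.9 and 110.5 CPM in WT. It had 146, 129, 129.6, 115 and 119.9 CPM in mEC1dup/dup, and the groups overlapped. The log2 fold change was 0.13 (SE 0.081, interval -0.047 to 0.30, edgeR adjusted p = 0.485). *Edn1*, at chr13:42446301-42461466 on the + strand, had only 39 to 48 counts per WT library and 34 to 54 per mEC1dup/dup library. In CPM the means were 2.40 ± 0.221 and 2.39 ± 0.423 (SD, n = 5), with a log2 fold change of -0.0029 (SE 0.17, edgeR adjusted p = 0.995). Its interval from -0.36 to 0.36 shows what this depth could not detect, and it reaches the size of the *Dlx3* fold. On the other strand, 29.7% of the *Ednra* and 22.5% of the *Edn1* exon bases are shared with annotated transcripts.

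The rest of the endothelin pathway was measured from a list of 13 further genes, all of which passed the filter. None of the 13 passed the thresholds in either direction, 6 had a positive and 7 a negative log2 fold change, and the median was -0.018. By level the leading genes were *Furin*, which encodes a protease that cleaves the endothelin precursor, *Mef2c*, a transcription factor gene of the arch response to endothelin, *Ece1*, the endothelin converting enzyme gene, and *Gna11*, which encodes a G protein subunit that couples to the receptor. Their log2 fold changes were 0.07, -0.18, -0.09 and 0.07, with adjusted p-values (edgeR) of 0.584, 0.361, 0.705 and 0.318. *Edn3* and *Ednrb*, the other ligand and receptor genes best known from neural crest derived pigment cells and named after their values were seen, had 0.05 (adjusted p = 0.803) and -0.23 (adjusted p = 0.388). The farthest from 0 was *Edn2*, which was named after its values were seen. It had 1.88 to 2.55 CPM in WT and 0.661 to 1.63 CPM in mEC1dup/dup, without overlap, in a pattern shared by 2.75% of all tested genes. Its log2 fold change of -0.99 (SE 0.27) missed the threshold with an edgeR adjusted p of 0.0703, and its average log2 CPM of 0.75 was under the level required.

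Transcripts that share the loci of the group were listed separately, and 5 of 6 could be tested. None of the 5 passed the thresholds, all 5 had a positive log2 fold change and the median was 0.42. *Hand2os1*, the antisense long noncoding RNA whose span holds *Hand2*, had 21, 38, 44, 30 and 37 counts in WT and 61, 38, 43, 82 and 52 in mEC1dup/dup. Its log2 fold change was 0.67 (SE 0.24, interval 0.15 to 1.20, edgeR adjusted p = 0.180), close in size to that of *Hand2* but with overlapping groups. The log2 ratio of *Hand2* to *Hand2os1* CPM was 2.59 ± 0.393 in WT and 2.58 ± 0.243 in mEC1dup/dup. *Dlx6os1*, the long noncoding RNA whose annotated span holds *Dlx6*, had 0.42 (adjusted p = 0.224), *Dlx4os* 0.35 (adjusted p = 0.217), *Dlx1as* 0.50 (adjusted p = 0.284) and *Dlx4*, which lies 15150 bases from *Dlx3*, 0.16 (adjusted p = 0.597). *Dlx6os2* had under 1 CPM in every library and was not tested. Neither library kit named in the sources marks strand, and how reads from shared exon bases were counted is not given. Their part in the likeness between a gene and its antisense partner was not tested.

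Other genes of arch patterning were measured from a list of 24. Of these 24 listed genes, all tested, 17 had a positive and 7 a negative log2 fold change, with a median of 0.088. *Rgs5*, which encodes a regulator of G protein signalling and is also known as a pericyte gene, was the only DEG. It was downregulated, from 30.6 ± 3.65 to 21.5 ± 3.91 CPM (log2 fold change -0.50, SE 0.12, edgeR adjusted p = 0.0378), in a direction in which 1.81% of all tested genes were DEGs. Its groups overlapped, because mEC1dup/dup replicate 4 had 27.0 CPM and WT replicate 5 had 26.9. The *Rgs5* call was lost without WT replicate 1, 2 or 3 or mEC1dup/dup replicate 2 or 3. The most abundant of the list were the mesenchymal genes *Prrx1* and *Twist1*, *Pou3f3*, a gene of dorsal arch identity, and *Notch2*. Their log2 fold changes were 0.07, 0.15, 0.06 and -0.09, with edgeR adjusted p-values from 0.313 to 0.827. The genes with the largest remaining changes were named after their values were seen. *Gsc*, a homeobox gene downstream of endothelin in the arch, had 9.64 to 16.2 CPM in WT and 17.0 to 20.6 in mEC1dup/dup. Its log2 fold change was 0.45 (edgeR adjusted p = 0.0625). *Barx1* had 0.51 (adjusted p = 0.103), *Gbx2* 0.77 (adjusted p = 0.196) and *Foxl2* -0.44 (adjusted p = 0.0607).

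**Figure D3:**
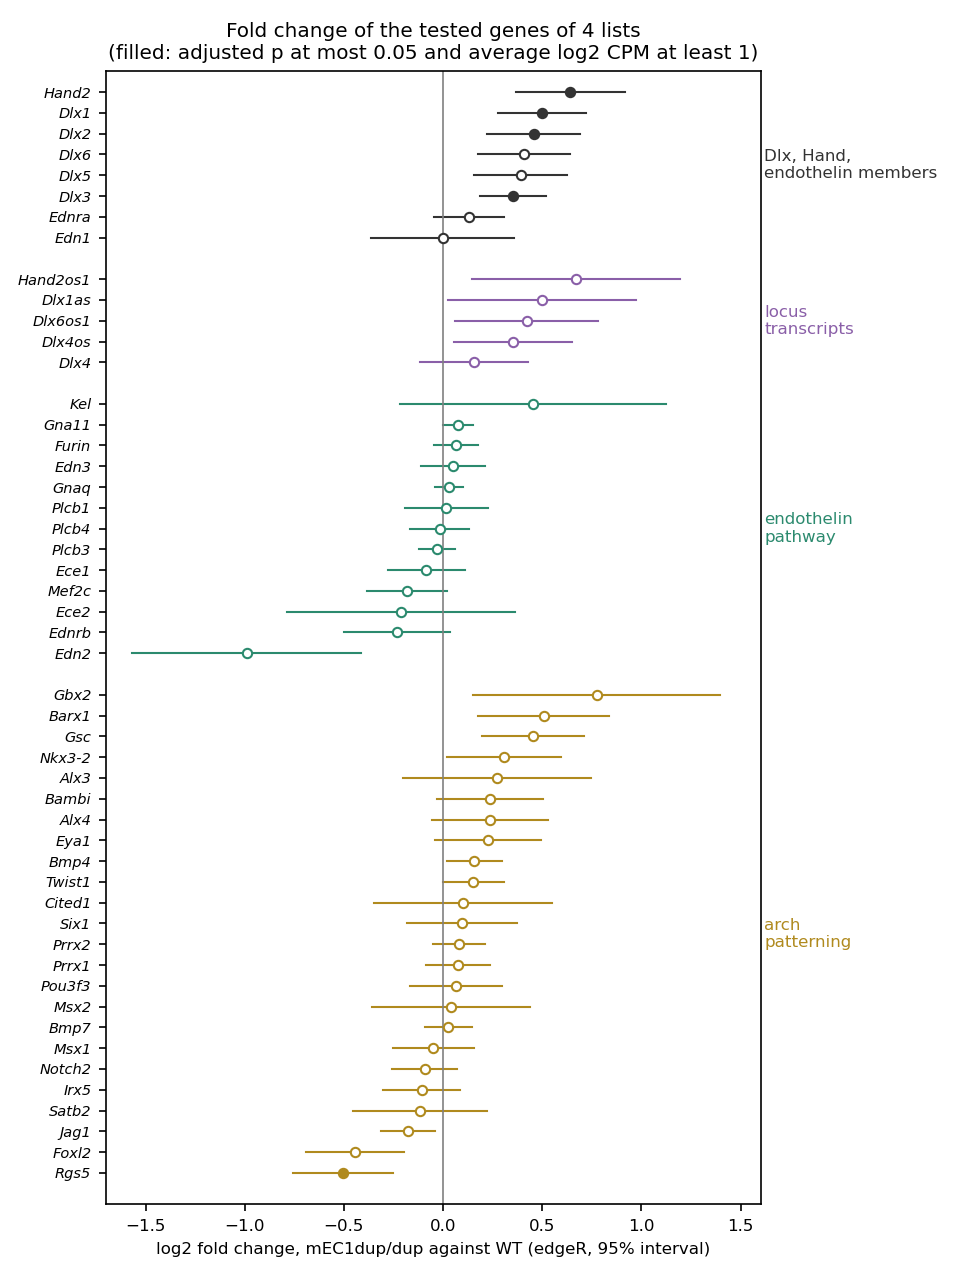
Points are edgeR log2 fold changes of mEC1dup/dup against WT with 95% intervals, for the Dlx, Hand and endothelin genes and the 3 related lists, and filled points pass both thresholds. Among the 8 tested members *Hand2* is the highest at 0.64 with the Dlx genes from 0.35 to 0.50, *Gbx2* (0.77) and *Hand2os1* (0.67) of the other lists lie above it with wider intervals, and the endothelin pathway has a median of -0.018.

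The variation of the group between libraries of 1 genotype was described next. Log2 CPM was centred on the mean of each genotype, and Pearson's r over the 10 libraries is given as a description, since all pairs share the same libraries. The convergent pairs had r = 0.95 for *Dlx1* and *Dlx2* and 0.87 for *Dlx5* and *Dlx6*, and *Dlx1* and *Dlx5*, on different chromosomes, had 0.95. *Dlx3* and *Ednra* had 0.91. The lowest coefficients among the Dlx genes were 0.59 for *Dlx3* and *Dlx6*, 0.74 for *Dlx2* and *Dlx6* and 0.79 for *Dlx3* and *Dlx5*. WT replicate 4, the lowest library for 7 of the 9 genes, carries part of this. It was the lowest library for 15.1% and the highest for 17.3% of all tested genes. Without it, r was 0.89, 0.88, 0.86 and 0.81 for the first 4 pairs and 0.33, 0.59 and 0.50 for the other 3. For *Hand2* the coefficients turned with that library, from 0.38 to -0.51 with *Dlx1* and from 0.32 to -0.64 with *Dlx5*. In WT, replicate 4 was the lowest library for *Hand2* as for the Dlx genes, whereas in mEC1dup/dup, replicate 4 was the highest for *Hand2* and the lowest for *Dlx1*, *Dlx2* and *Dlx5*. With *Hand2os1*, *Hand2* had 0.63, and 0.76 without WT replicate 4. *Edn1* had r = -0.48 with *Dlx1*, and -0.86 without that library.

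**Figure D4:**
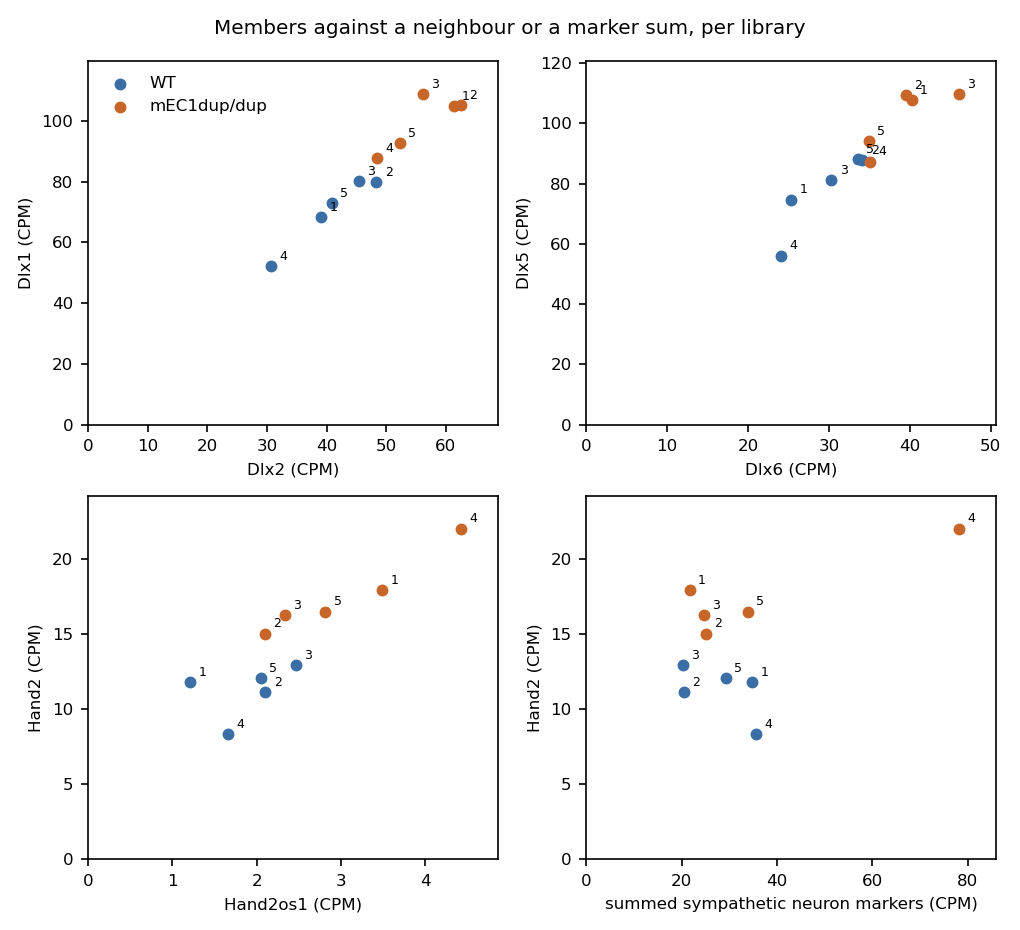
Each point is 1 library in CPM with its replicate number, for *Dlx1* against *Dlx2*, *Dlx5* against *Dlx6*, *Hand2* against *Hand2os1* and *Hand2* against the summed sympathetic neuron markers. The Dlx pairs lie near straight lines through both genotypes, and mEC1dup/dup replicate 4 lies alone at 78.2 CPM of the marker sum.

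The genes most like each member in this centred pattern, among 14084 tested genes of sufficient level, were not DEGs, with 1 exception among the 3 nearest of each. The nearest gene was *Lrig3* for *Dlx1* (r = 0.97), *Bmp1* for *Dlx2* (0.97), *Kank2* for *Dlx3* (0.97), *Ror1* for *Dlx5* (0.97), *Ska1* for *Dlx6* (0.96) and *Cdh11* for *Ednra* (0.98). For *Hand2* it was *Naa80* (0.93) and for *Edn1* *Elovl7* (0.93). *Dlx1* ranked 5 among the genes nearest to *Dlx2*, and *Dlx5* ranked 10 among those nearest to *Dlx6*. In the other direction, *Dlx2* ranked 14 among the genes nearest to *Dlx1*, behind *Dlx5* at 12. *Dlx6* ranked 67 among those nearest to *Dlx5*, behind *Dlx1* at 9 and *Dlx2* at 29. The exception was *Rgs5*, the third nearest gene of *Edn1* (r = 0.89).

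The summed level of 6 markers of mesenchyme, the tissue in which arch Dlx genes are mainly known, ran from 8892 to 14880 CPM in WT and from 9361 to 10778 in mEC1dup/dup. The groups overlapped through WT replicate 4 alone, which was also the lowest for the Dlx genes, and the other 4 WT libraries, from 11219 CPM upwards, were above every mEC1dup/dup library. Most of this sum came from the collagen genes *Col1a1* and *Col3a1*, with WT means of 5606 and 5528 CPM. The WT means of *Pdgfra*, *Lum*, *Dpt* and *Twist2* were 521, 398, 79.2 and 16.5 CPM. The sum therefore mainly follows the 2 collagen genes, whose log2 fold changes were -0.35 and -0.28, neither a DEG. Of the 6 markers, 5 had a negative log2 fold change, with a median of -0.29. *Dpt* and *Lum* were downregulated DEGs, none was an upregulated one, and *Pdgfra*, the general mesenchymal marker, had a log2 fold change of 0.08. Over all tested genes, 1.81% were downregulated and 0.834% upregulated DEGs. Summed chondrocyte markers ran from 4553 to 7598 CPM in WT and from 2050 to 6039 in mEC1dup/dup, with mEC1dup/dup replicate 1 the lowest. Most of that sum was *Col2a1*, with a WT mean of 3744 CPM. None of the 5 was a DEG. The log2 fold change was negative for 4, from -0.69 for *Acan* to -0.23 for *Col9a1*, and 0.19 for *Sox9*. Of 4 forebrain interneuron markers, listed because Dlx genes also act there, *Gad1* and *Slc32a1* had at most 36 counts in any library, *Gad2* 33 to 83 and *Lhx6*, which arch mesenchyme also expresses, 279 to 367. Only *Gad2* and *Lhx6* passed the filter, and neither was a DEG. Of the remaining marker lists, endothelium, smooth muscle and pericyte, osteoblast and glia had no DEG, and the muscle myosin gene *Myh3* was a downregulated DEG among 5 skeletal muscle markers. The part of these markers in the results was not tested.

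The direction of the 5 Dlx genes and *Hand2* was positive in each fit with 1 library left out, while their calls depended on the libraries. *Hand2* passed the thresholds in all 10 such fits, with a log2 fold change of 0.55 to 0.70. *Dlx1* (0.40 to 0.55) lost its call without WT replicate 1 or mEC1dup/dup replicate 2 or 3. *Dlx3* (0.29 to 0.39) lost it without WT replicate 1, 2 or 5 or mEC1dup/dup replicate 2 or 3. *Dlx2* (0.37 to 0.53) lost it in 7 of the 10 fits, all except those without WT replicate 2, WT replicate 4 or mEC1dup/dup replicate 4. *Dlx5* gained a call without WT replicate 4 (adjusted p = 0.0419).

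With only the libraries of over 1000 *Ddx3y* counts, which leaves the 5 WT libraries and mEC1dup/dup replicates 4 and 5, the log2 fold changes were 0.35, 0.30, 0.24, 0.23 and 0.25 for *Dlx1*, *Dlx2*, *Dlx3*, *Dlx5* and *Dlx6* and 0.78 (edgeR adjusted p = 0.175) for *Hand2*. None of the group passed the thresholds in that fit, in which 1 of all tested genes did. Without mEC1dup/dup replicates 1 and 4, the libraries with both kinds of sex-linked counts, none passed either, with 0.54 (adjusted p = 0.0644) for *Dlx1* and 0.51 (adjusted p = 0.0983) for *Hand2*. Sex and genotype cannot be fully told apart with these libraries, since no WT library had *Xist* counts above 5.

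**Figure D5:**
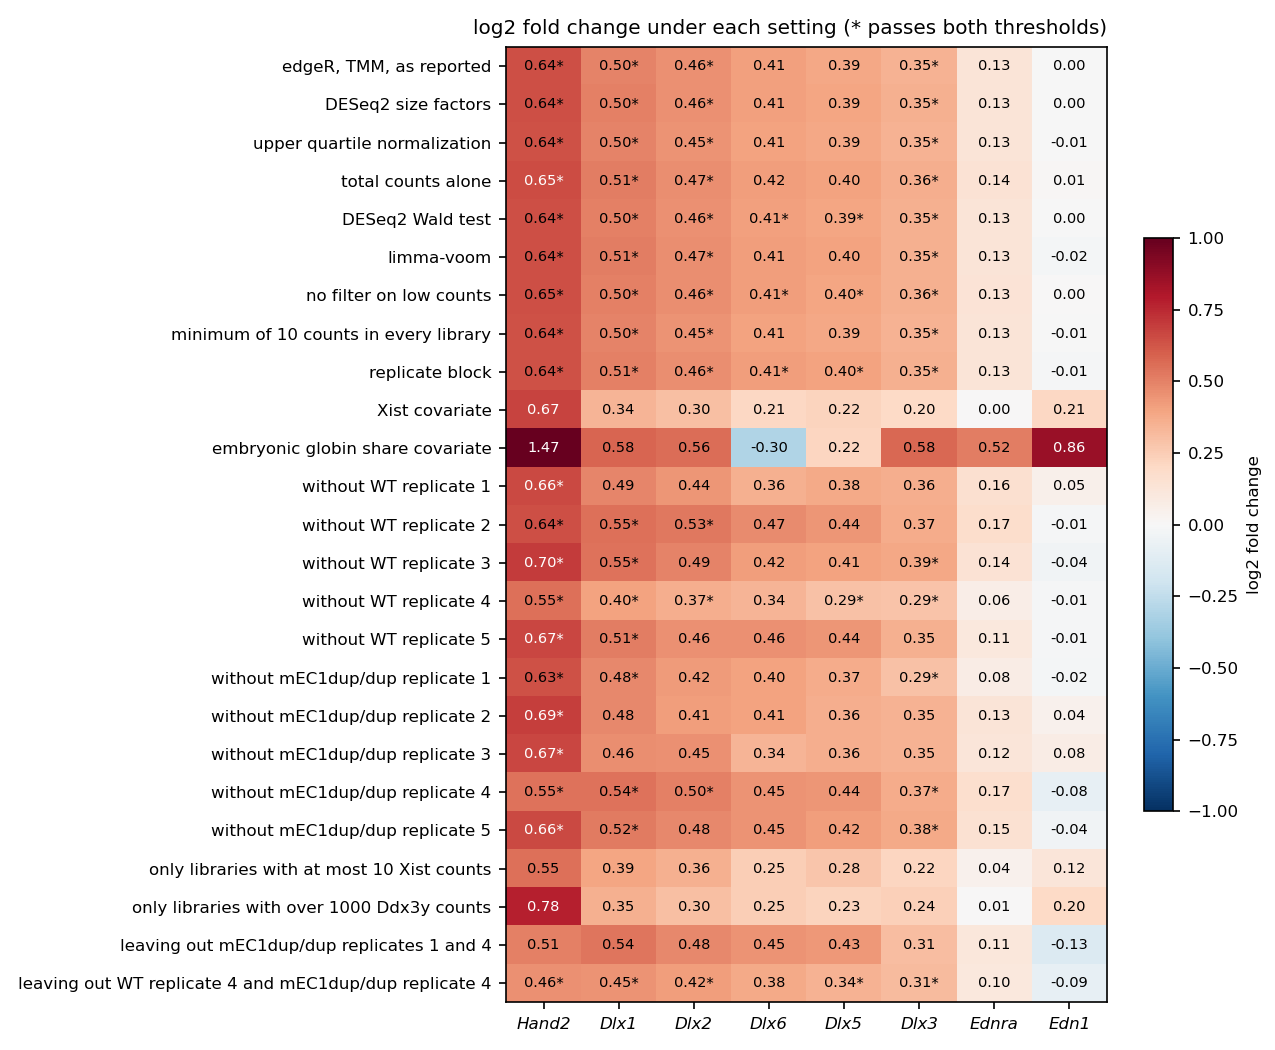
Rows are the fit as reported and its alternatives, columns the 8 tested genes, and each cell gives the log2 fold change of mEC1dup/dup against WT by colour and number, with a star where both thresholds were passed. *Hand2* and the Dlx genes are positive throughout except for *Dlx6* at -0.30 when the globin share was added as a covariate, and no star stands in that fit, in the fit with *Xist*, in either fit limited by *Xist* or *Ddx3y* counts or in the fit without mEC1dup/dup replicates 1 and 4.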

How the data were processed

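The authors ran fastp on the paired reads, then STAR against GRCm39 and featureCounts per gene, and deposited the raw counts for 53465 genes in 10 libraries. The labels and the paper's methods name different library kits, neither of which marks strand, and the strand setting is not given in the sources used here. GENCODE vM39 matched 49355 identifiers, and the unmatched rows held 0.111% of the counts. The 9 genes and all lists were chosen with earlier results of these data known.

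Counts passing filterByExpr (16426 genes) were TMM-normalised and fitted with edgeR version 4.0.16 in R version 4.3.3 (glmQLFit, glmQLFTest, genotype as the only term), with Benjamini-Hochberg adjustment over all of them. Log2 CPM of single libraries used a prior count of 2. On simulated counts, 192 of 200 genes with a log2 fold change of 1 were called, with 16 false calls. The largest fold change of the group was 0.64, and recovery of changes that small was not simulated. The simulated libraries also held no difference in sex or globin share. Named genes are the 9, every DEG of each list with its 4 most abundant other genes, and the 3 genes nearest each member, of which the text prints the first and any DEG. *Hmx1*, *Xist* and the embryonic globins served as checks. Besides the cell type markers, which have lists of their own, the genes outside the rule are *Ddx3y*, *Edn2*, *Edn3*, *Ednrb*, *Hand2os1*, *Dlx6os2*, *Gsc*, *Barx1*, *Gbx2* and *Foxl2*, named after their values were seen. Alternatives used DESeq2 version 1.42.0, limma version 3.58.1 and the settings of the closing section, of which those on *Ddx3y* and on pairs of libraries left out were added after seeing the data. No 2 libraries of a genotype agreed within sampling noise. Intervals from counts cover counting error only where so stated. The sympathetic neuron and interneuron marker lists first held 1 gene more each, which is left out and not reported here. Protein sequences and the single-cell data were not analysed here. Matplotlib version 3.10.9 drew the figures.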

Additional observations from a re-analysis of the deposited data

Results flagged for a closer look

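*Hand1* in mEC1dup/dup replicate 4 stood far from the other libraries of its genotype. It measured 3.24 CPM (60 counts), against 0.0551 to 0.914 CPM in the other 4, and the gap to the nearest made up 0.730 of the range, above Dixon's 95% critical value of 0.710 for 5 samples. It was the only such value among 22 groups of 5 libraries examined, and chance alone marks about 1 group in 20. The same library had the highest *Hand2* (22.1 CPM) and the highest summed sympathetic neuron markers (78.2 CPM).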

How the results depend on the processing

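The number of Dlx, Hand and endothelin genes past the thresholds was 4 as reported and moved to 0 with *Xist* or the embryonic globin share as a covariate, with only libraries of at most 10 *Xist* counts (mEC1dup/dup replicate 5 alone against 5 WT, assumed to vary as they do), with only libraries of over 1000 *Ddx3y* counts, and without mEC1dup/dup replicates 1 and 4. The last 3 fits hold fewer libraries. In the covariate fits the standard errors were larger. *Hand2* had 0.67 (SE 0.21) with *Xist* and 1.47 (SE 0.54) with the globin share, and *Dlx1* 0.34 (SE 0.16) and 0.58 (SE 0.48). With *Xist*, *Dlx2* was 0.30, *Dlx3* 0.20, *Dlx5* 0.22 and *Dlx6* 0.21, each over 1.5 times smaller than reported. It was 6 with the DESeq2 Wald test and without the filter on low counts, where *Dlx5* and *Dlx6* passed too, and ran from 1 to 5 with 1 library left out. *Dlx6* turned to -0.30 (SE 0.46) with the globin covariate. *Edn1*, at -0.0029 as reported, turned to 0.0083 with total counts alone, 0.0034 without the filter, 0.21 with *Xist*, 0.86 with the globin share, 0.12 with at most 10 *Xist* counts, 0.20 with over 1000 *Ddx3y* counts, and ran from -0.0832 to 0.0762 with 1 library left out (-0.0851 without replicate 4 of both genotypes). *Ednra*, at 0.13 as reported, was 0.0008 with *Xist*, 0.007 with over 1000 *Ddx3y* counts and 0.52 (SE 0.36) with the globin share. With 1 library left out it ran from 0.0627 to 0.1738. The endothelin pathway and locus lists had no DEG with any library left out.

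Arch patterning genes past the thresholds numbered 1 as reported, 2 with total counts alone, 3 with the DESeq2 Wald test, without the filter, without mEC1dup/dup replicates 1 and 4 and without replicate 4 of both genotypes, 0 in the fits with *Xist*, the globin share, at most 10 *Xist* counts or over 1000 *Ddx3y* counts, and 0 to 4 with 1 library left out. All tested genes past the thresholds numbered 435 as reported, 831 with the Wald test, 2 with *Xist* as covariate, 0 with the globin share (795 at an unadjusted p under 0.05) and with at most 10 *Xist* counts (1171), 1 with over 1000 *Ddx3y* counts, 147 without mEC1dup/dup replicates 1 and 4, and 154 to 655 with 1 library left out.

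The replicate numbers were fitted as a block, although the deviations of same-numbered libraries correlated unevenly (mean 0.162, from -0.0558 to 0.345). With the block, 6 of the group passed the thresholds, *Dlx5* and *Dlx6* in addition, with 3 arch patterning genes and 688 of all tested genes. Depth limits *Edn1* and *Hand1* most.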
